A study of Drosophila melanogaster with 3 samples.

Results

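The cytoplasmic ribosomal protein genes of Drosophila melanogaster were taken as the protein-coding genes whose symbol is RpL or RpS followed by a digit, together with RpLP0, RpLP1, RpLP2 and sta. Symbols ending in -like were left out. The choice was made by name alone and gave 88 genes of 13968 protein-coding genes in the annotation, 50 of the large subunit and 38 of the small subunit. Fru protein fused to GFP was mapped on chromatin by immunoprecipitation followed by sequencing (ChIP-seq). All 3 samples were biological replicates of 1 group, per the labels, so there was no other genotype, treatment or stage to compare. The animals came from the fru-MiMIC-GFP line, whose fru gene carries an added eGFP exon within an intron and thereby produces the fusion protein from its own locus. Whole wandering larvae of the third instar, males and females pooled, of a single line were used, and the anti-GFP immunoprecipitate was made from sonicated chromatin with fragments of 200 to 800 bp. Binding in a few cells and weak binding in many cells cannot be told apart in whole animals.

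Each ribosome joins a large and a small subunit, each built from ribosomal RNA and many proteins. Cells need these proteins in matched amounts, and in the fly a reduced dose of many of them gives the Minute phenotype of slow development and short bristles. Transcription of these genes in flies typically starts within a run of pyrimidines known as the TCT initiator, and the factors DREF, M1BP and the TBP-related factor Trf2 are known to act at their promoters. Fru proteins are transcription factors with a BTB domain and zinc fingers, studied above all for their role in the courtship of males.

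The deposited values are lists of regions with a summit and a signal value, a score made by the authors that serves here only to rank regions within a list. A thresholded list holds 8996 regions, a pooled list 30000 regions, and each replicate has a list of its own with 30000 regions. Rank 1 is the region of highest signal value in a list. The lists hold no read counts, so depth is unknown, and the control experiment named in the labels was not analysed here. A gene counts as having a summit when a thresholded summit lies within 500 bp of any of its annotated transcription start sites (TSSs). Since the 3 samples form 1 group, the values below are descriptions with no test, set beside the same values over all protein-coding genes. Intervals are 95% Wilson intervals that cover the sampling of genes only, and neighbouring genes are not independent.

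Fru-GFP summits lay at the promoters of most ribosomal protein genes. Of the 88 genes 60 had a thresholded summit at a TSS (68.2%, interval 57.9 to 77.0%), against 24.6% of all protein-coding genes. The strongest regions of replicates 1, 2 and 3, 8996 from each list, held a summit at 65, 65 and 59 of the 88 genes (73.9, 73.9 and 67.0%), against 25.2, 27.3 and 24.3% of all protein-coding genes. The replicate mean was 71.6% ± 3.94 for ribosomal protein genes and 25.6% ± 1.56 for all genes (SD, n = 3 each), and the lowest replicate of the ribosomal protein genes lay above the highest of all genes. In the whole pooled list, weaker regions included, 71 of the 88 genes (80.7%) had a summit, against 40.1% of all genes.

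**Figure D1:**
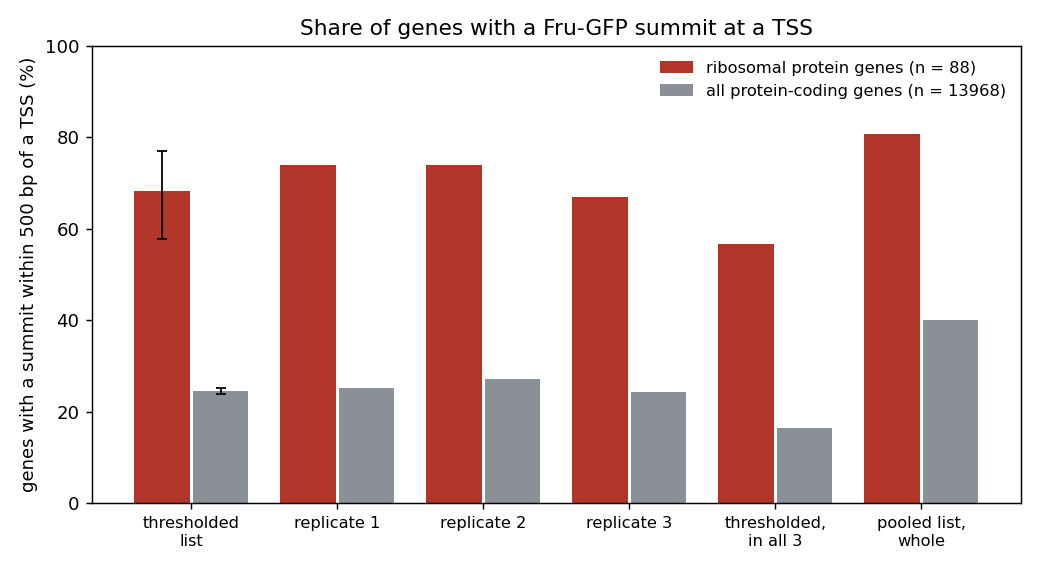
Percent of genes with a summit within 500 bp of a TSS, for the 88 ribosomal protein genes (red, left) and all 13968 protein-coding genes (grey, right), in the thresholded list, the 8996 strongest regions of each replicate, the thresholded summits present in all 3 replicates, and the whole pooled list. Error bars, drawn for the thresholded list, are 95% Wilson intervals; ribosomal protein genes lie between 56.8 and 80.7%, all genes between 16.4 and 40.1%.

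The large subunit had a summit at 35 of 50 genes (70.0%, interval 56.2 to 80.9%) and the small subunit at 25 of 38 (65.8%, interval 49.9 to 78.8%), so the intervals overlap over most of their length. In the strongest regions of the replicates the share averaged 75.3% ± 5.03 for the large subunit and 66.7% ± 4.02 for the small subunit (SD, n = 3 each). No summit served as the strongest of more than 1 member, so the 60 genes have 60 distinct strongest summits. Their median rank in the thresholded list was 2880, in a range of 63 to 7335, against 3311.5 for the 3376 other protein-coding genes with a summit. This order is not stable: among the 4498 strongest regions the median was 2265 for members and 1838 for all genes, and for summits present in all 3 replicates it was 2566 and 2141, so there the members ranked below all genes.

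The ribosomal protein genes were spread over the upper part of the list, and few lay near its end. Ranks 1 to 2249 held the strongest summit of 22 of the 60 genes (36.7%, against 36.8% of other genes with a summit), and ranks 2250 to 4498 held another 22 (36.7%, against 26.0%). Ranks 4499 to 6747 held 12 (20.0%, against 20.8%), and ranks 6748 to 8996 held 4 (6.67%, against 16.4%). The share in the strongest ranks was thus the same as for other genes, and the difference lay in the middle and at the end of the list.

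The 6 strongest members belonged to both subunits. The sequence around each of their TSSs is shown because these promoters carry the strongest summits. Each run holds 55 bases of dm6, read from the RefSeq genome on the strand of the gene, with the TSS nearest to the summit as the base at position 41 counted from the left and CTTT in capitals where it starts within 6 bases of the TSS. The positions and strands are chr3L:8600966-8601020 (plus) for RpL14, chr3R:25247500-25247554 (minus) for RpS27, chr3R:30046147-30046201 (minus) for RpL32, chr3R:9401212-9401266 (minus) for RpL34b, chr3R:20822141-20822195 (plus) for RpS20, chr3L:1668640-1668694 (minus) for RpL23A.
RpL14: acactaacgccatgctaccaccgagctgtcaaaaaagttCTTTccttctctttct
RpS27: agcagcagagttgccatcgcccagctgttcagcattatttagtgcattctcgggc
RpL32: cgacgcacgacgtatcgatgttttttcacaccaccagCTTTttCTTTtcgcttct
RpL34b: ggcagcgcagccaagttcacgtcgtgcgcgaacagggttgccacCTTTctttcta
RpS20: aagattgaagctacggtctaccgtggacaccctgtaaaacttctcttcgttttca
RpL23A: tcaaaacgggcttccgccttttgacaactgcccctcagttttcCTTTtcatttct
Of these 6, the runs of RpL14, RpL32, RpL34b and RpL23A hold CTTT within 6 bases of this TSS, while RpS27 and RpS20 have none within that distance. For RpL32 and RpL34b this is not the TSS of the canonical transcript, and at its canonical TSS RpL32 has no CTTT.

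RpL14, a large-subunit protein, had the strongest summit of all members, at rank 63 in the thresholded list with a signal value of 2121. It ranked 63, 42 and 101 in replicates 1, 2 and 3, and the summit lay 107 bp upstream of the RpL14 TSS and 20 bp from a TSS of Nelf-E, a subunit of the negative elongation factor. Nelf-E is transcribed in the opposite direction from the same promoter region, so that the region cannot be given to either gene. RpS27, a small-subunit protein, came next at rank 321 (229, 325 and 576 in the replicates), 30 bp upstream of its TSS and 114 bp from that of Nup37, a nuclear pore gene. RpL32, long used in flies as a reference gene for RNA measurements, stood at rank 402 (300, 354 and 693), 142 bp upstream.

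RpL34b ranked 424 (319, 408 and 642 in the replicates), 102 bp upstream, and RpS20 ranked 843 (638, 790 and 1262), 148 bp upstream. RpL23A, which lies near the exit of the peptide tunnel, ranked 1033 (805, 645 and 1990), 75 bp upstream. Of these 6 genes RpL23A is the 1 without another TSS within 500 bp of the summit. All 6 ranked lower in replicate 3 than in replicates 1 and 2.

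Other strong summits lay at RpL41 at rank 1173, RpLP0 at 1184, RpL13A at 1188, RpL19 at 1280 and RpL7 at 1281. Their ranks lay between 845 and 1332 in replicate 1, between 1005 and 1505 in replicate 2, and between 1432 and 1909 in replicate 3. For RpL41, RpLP0, RpL13A and RpL19 the summit lay 44 to 75 bp upstream of the nearest TSS, which for RpLP0 is not the canonical one, and for RpL7 it lay 48 bp downstream. Of the 12 strongest members 10 belong to the large subunit, and RpS27 and RpS20 are the 2 of the small subunit.

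The proteins of the stalk, which recruits the GTPases of translation to the large subunit, differed in rank. RpLP0, the base of the stalk, had the rank of 1184 given above (1300, 1104 and 1488 in the replicates), 50 bp upstream of its nearest TSS. That is not the TSS of the canonical transcript, and the summit lies downstream of the canonical one. RpLP1 ranked 3215 (3540, 2732 and 3816), 98 bp upstream. RpLP2 ranked 6598, 18 bp upstream, with ranks of 6804 and 5341 in replicates 1 and 2 and no matching region in replicate 3.

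RpL5, which binds the 5S ribosomal RNA, had no thresholded summit at a TSS. Among the small-subunit proteins named for their known roles, sta, the fly form of the laminin-receptor protein RpSA, had a summit 1 bp upstream of its TSS at rank 2800 (3197, 2360 and 3188 in the replicates). RpS6, the substrate of S6 kinase, had the weakest summit of all members, 35 bp downstream of its TSS at rank 7335 (5869, 7383 and 8936). RpS3, at the mRNA entry of the small subunit, had no thresholded summit at a TSS. The other weakest members were RpS13 at rank 7237 and RpL27A at 7220.

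Most member summits recurred in all 3 replicates. A summit counted as present when one of the 8996 strongest regions of a replicate had its own summit within 100 bp. Of the 88 genes 50 had their strongest summit present in all 3 replicates (56.8%), against 16.4% of all protein-coding genes. Over genes with a summit alone this was 50 of 60 members (83.3%), against 66.4% of the 3376 other genes with a summit. The groups differ in rank, since ranks 6748 to 8996 held 6.67% of the members and 16.4% of the other genes. The part of rank in this difference was not tested. Another 9 members were present in 2 replicates, 1 was present in 1 replicate and 0 were in none. Replicates 1, 2 and 3 held 56, 57 and 56 of the 60 summits among their strongest regions, and 57, 59 and 58 in their whole lists.

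RpS13 was the gene present in 1 replicate, with rank 3654 in replicate 2, rank 13840 in replicate 3 and no matching region in replicate 1. RpL35 and RpS2 had no matching region in replicate 1, RpL23 had none in replicate 2, and RpS28b and RpLP2 had none in replicate 3. The other 4 of the 9 fell below the 8996 strongest regions in 1 replicate. RpL3, which lines the peptidyl transferase centre, ranked 12437 in replicate 1 but 1779 and 2399 in replicates 2 and 3, and RpS14a ranked 12397 in replicate 2 but 4395 and 4416 in replicates 1 and 3. RpS30 ranked 9838 in replicate 3.

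Presence required a replicate summit within 100 bp, which bounds the shifts that can be seen. Within that limit the median shift from the thresholded summit was 14, 20 and 8 bp in replicates 1, 2 and 3, with maxima of 83, 88 and 79 bp. When a distance of 250 bp was allowed, 54 members in place of 50 were present in all 3 replicates. Across the 54 members present in the whole lists of all 3 replicates, Spearman's rho of the ranks was 0.881 for replicates 1 and 2, 0.787 for 1 and 3, and 0.838 for 2 and 3. These correlations run across genes, and the genes of a library are not independent replicates. The median rank of the present summits was 2294, 2827 and 3731 in replicates 1, 2 and 3, so the members stood lower in the list of replicate 3.

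**Figure D2:**
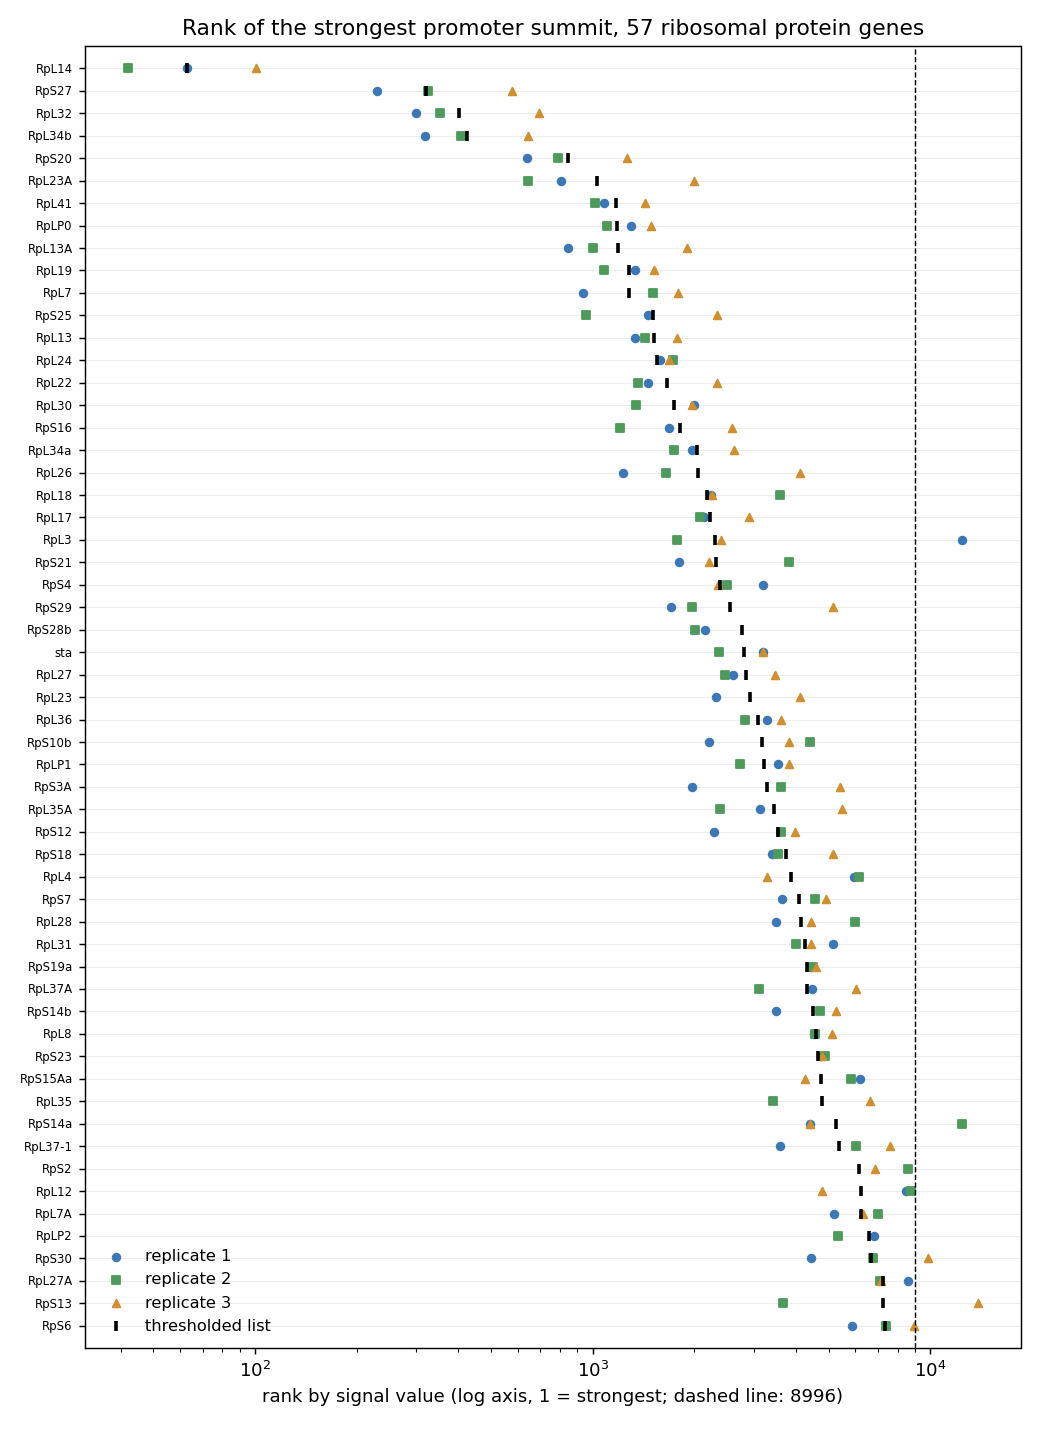
Rank by signal value (log axis, 1 is the strongest) of the strongest promoter summit of 57 ribosomal protein genes with one, in the thresholded list (black tick) and in replicates 1 (circle), 2 (square) and 3 (triangle), genes ordered from strongest at the top to weakest. A missing symbol means no matching region in that replicate, and the dashed line marks rank 8996; symbols right of it belong to members such as RpL3, RpS14a, RpS30 and RpS13.

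Member summits lay close to the TSS and mostly just upstream of it. The median position was -46.5 bp (quartiles -85.5 and -8.25 bp, negative values being upstream), in a range of -326 to 96 bp, against a median of -127 bp (quartiles -223 and -36 bp) for other genes with a summit. Of the 60 genes 51 had the summit upstream (85.0%, against 81.4% of other genes). Within 150 bp of the TSS lay 58 of the 60 summits (96.7%, against 52.3%), and within 50 bp lay 31 (51.7%, against 15.8%).

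The replicates gave the same order when each list was read on its own. The median position in replicates 1, 2 and 3 was -53, -27 and -62 bp for ribosomal protein genes, against -123, -107 and -139 bp for other genes. The means of these medians were -47.3 ± 18.2 bp and -123.0 ± 16.0 bp (SD, n = 3 each), so the groups did not overlap in the 3 replicates. Genes with several annotated TSSs have more chances of a near one, and 44 of the 88 ribosomal protein genes have 1 TSS, against 73.5% of all protein-coding genes. Among genes with 1 TSS the median was -74 bp for 24 ribosomal protein genes and -136 bp for 1815 other genes. There 6 of the 24 ribosomal protein genes had the summit within 50 bp of the TSS, against 13.3% of the other genes, and within 150 bp it was 95.8%, against 51.7%.

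The position varied within the family. The large subunit had a median of -57 bp and the small subunit of -30 bp. The strongest summit of a small-subunit gene lay at most 148 bp from the TSS, further summits left out. The 20 strongest members had a median of -74 bp and the 20 weakest of -17 bp. The nuclear genes of mitochondrial ribosomal proteins, which build the separate ribosome of the mitochondrion, had a median of -166 bp over 34 genes with a summit. A summit close to the TSS was not particular to the family. Most translation factors with a summit also had the strongest one within 150 bp of a TSS, such as eEF1gamma at -43 bp and eIF3h at 60 bp. For pAbp it lay at 486 bp, but that gene also has a weaker thresholded summit 45 bp from a TSS.

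**Figure D3:**
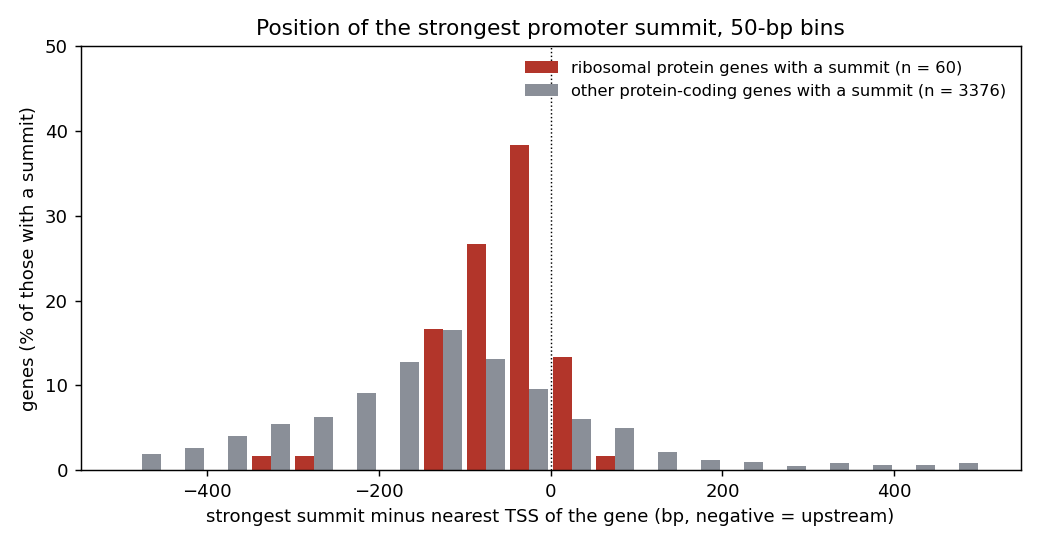
Position of the strongest promoter summit relative to the nearest TSS of the gene, in bins of 50 bp, as percent of the 60 ribosomal protein genes (red, left in each bin) and of the 3376 other protein-coding genes (grey, right) with a summit. Negative values are upstream; 51.7% of ribosomal protein genes and 15.8% of other genes lie within 50 bp of the TSS.

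Of the members inside the 500 bp window, RpL28 had the farthest nearest summit, 283 bp from its TSS, followed by RpS20 at 148 bp and RpL32 at 142 bp. Outside the window the closest were RpS19b at 890 bp, RpS28a at 1403 bp and RpS9 at 1624 bp. No member therefore lay near the limit of the window. The strongest summit of RpL23 lay 326 bp upstream, but that gene has a further summit 127 bp upstream at rank 3580.

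A further summit within 500 bp of a TSS was found at 8 members, among them RpL18, RpL22, RpL23, RpL32, RpL34b and RpS7. In all 8 the distance between the strongest summit and the next was 199 to 215 bp. For 7 of them the weaker summit lay farther upstream, and for RpL23 it lay nearer the TSS. The smallest distance between neighbouring summits anywhere in the thresholded list was also 199 bp, and 785 of 8990 neighbouring pairs in it were at most 220 bp apart.

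Many of the members share their promoter region with another gene. A TSS of a protein-coding gene on the opposite strand lay within 500 bp upstream of 33 of the 88 genes (37.5%, against 25.3% of all protein-coding genes). With such a divergent partner 28 of 33 members had a summit (84.8%, interval 69.1 to 93.3%, against 39.1% of all genes with a partner). Without one 32 of 55 had a summit (58.2%, interval 45.0 to 70.3%, against 19.7%). The share was thus above that of all genes in both classes.

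For 30 of the 60 members with a summit, the strongest summit lay within 500 bp of a TSS of another protein-coding gene too (against 47.5% of other genes with a summit). The count depends on the window, being 16 within 250 bp and 13 where the region had to overlap the TSS. In 26 of the 30 the member's own TSS was the nearer. The exceptions were RpL14 (Nelf-E), RpL23 (CG13531), RpL28 (eIF1, a translation initiation factor) and RpL34a (Trmt61). For other genes with a shared summit the own TSS was the nearer in 827 of 1605. That count is no baseline for the 26 of 30, because a shared summit can be counted from each of its genes, the partners of members included.

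Shared summits stood higher in the list. Their median rank was 2113 over the 30 members that share, against 3811 over the 30 that do not, and other genes had medians of 2819 and 3783 in the same order. Of the 22 members in ranks 1 to 2249, 16 shared the summit, and of the 22 in ranks 2250 to 4498, 11 did. In ranks 4499 to 6747 it was 1 of 12, and in ranks 6748 to 8996 it was 2 of 4. One shared summit joins RpL13 to Dref, the gene of the factor that binds the DNA replication-related element (DRE). That summit ranked 1519 (1333, 1429 and 1773 in the replicates) and lay 26 bp upstream of RpL13 and 58 bp from the TSS of Dref.

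Every member on the X chromosome had a summit. It was 15 of 15 (interval from 79.6%) on X, against 27.8% of the genes of that chromosome, and 45 of 73 elsewhere (61.6%, interval 50.2 to 71.9%), against 24.0%. The X members were of moderate rank, with a median of 4318, against 2376 for the members elsewhere. Over all protein-coding genes with a summit the median was also lower in the list on X, 3835 against 3187 elsewhere. In the strongest regions of replicates 1, 2 and 3 the X members with a summit were 100, 93.3 and 93.3%, against 68.5, 69.9 and 61.6% of the members elsewhere. Of the 15 X members 5 have 1 TSS (33.3%, against 53.4% of members elsewhere), so the number of TSSs moves with the chromosome. Membership of a paralog pair does too. RpS10b, RpS19a, RpS28b, RpS15Aa and RpL37-1 lie on X, while their paralogs, which have no thresholded summit at a TSS, lie elsewhere. The part of either in the result was not tested.

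Members with more annotated TSSs had a summit more often. Of the 44 members with 1 TSS 24 had one (54.5%, against 17.9% of all genes with 1 TSS), and of the 44 with at least 2 TSSs 36 did (81.8%, against 43.2%). By chromosome arm the counts were 10 of 17 on 2L (against 22.1% of all genes of the arm), 10 of 19 on 2R (against 23.1%), 10 of 14 on 3L (against 25.7%) and 14 of 22 on 3R (against 25.1%). RpS3A, the 1 member on chromosome 4, had a summit at rank 3292.

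The members without a thresholded summit fell into 3 classes. For 11 of the 28 the pooled list held a region at a TSS that did not reach the thresholded list, for 10 there were regions only in replicate lists, and for 7 there was no region in any list. The first class included RpL10, RpL15, RpL38, RpL39, RpL40, RpL5, RpL6, RpS15, RpS3 and RpS9, with pooled ranks between 9764 (RpS9) and 16972 (RpL38). The class with no region included RpL10Aa, RpL21, RpL37-2, RpL9, RpS19b and RpS27A.

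RpS9 came closest to the threshold, with a pooled summit 5 bp from the TSS and ranks of 12256, 8109 and 8784 in replicates 1, 2 and 3. RpL40 and RpS27A both encode a ribosomal protein fused to ubiquitin. RpL40 had a pooled region at rank 13568 (8627, 15234 and 23098 in the replicates), and RpS27A had none, its nearest thresholded summit being 20402 bp away. RpS3 had a pooled region at rank 13038 (21242, 8860 and 18428), and its nearest thresholded summit lay 1726 bp away.

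Among the 10 genes with regions only in replicate lists, RpS26 ranked 4650 and 4523 in replicates 2 and 3. In all, 2 members (2.27%, against 1.49% of all protein-coding genes) were among the strongest regions of at least 2 replicates with no region of the pooled list at a TSS. RpL11, the partner of RpL5 in 5S ribosomal RNA binding, ranked 1409 in replicate 2 and 20704 in replicate 1, with none in replicate 3. Others were RpL10Ab, RpL29, RpL36A, RpS10a, RpS15Ab, RpS24 and RpS28a, with best replicate ranks between 4934 (RpL10Ab) and 12839 (RpS10a). The calls for these genes therefore differ between lists made from the same libraries.

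**Figure D4:**
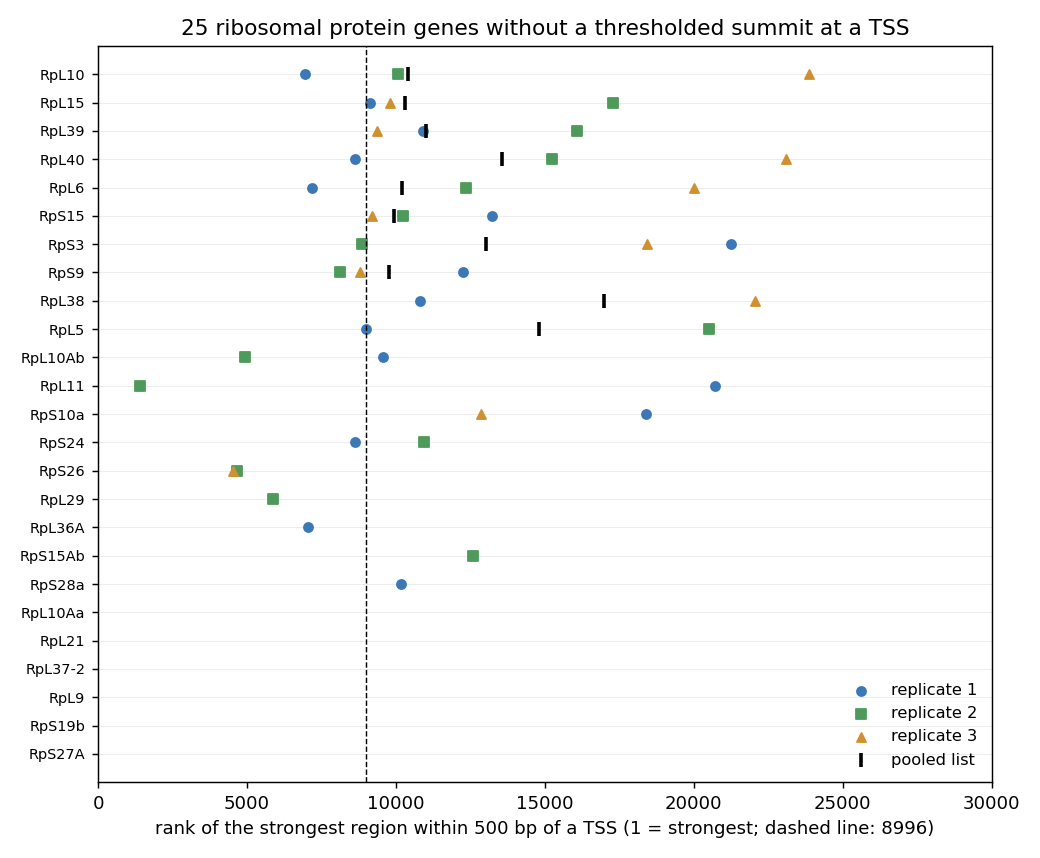
Rank of the strongest region within 500 bp of a TSS for 25 ribosomal protein genes without a thresholded summit there, in the pooled list (black tick) and in replicates 1 (circle), 2 (square) and 3 (triangle). The dashed line marks rank 8996; the bottom 6 genes have no region in any list, and symbols left of the line include RpL11 at 1409 in replicate 2.

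For 4 members the nearest thresholded summit was over 100 kb away, at 185358 bp for RpL10, 227876 bp for RpL38, 367997 bp for RpL5 and 1254654 bp for RpL15. Their TSSs lie in the parts of the arms that border the centromere, at 23.1 Mb (RpL10) and 27.3 Mb (RpL15) of 3L and 22.5 Mb (RpL5) of 2L, and at 4.52 Mb of 2R for RpL38. All 4 had a region of the pooled list at a TSS, with pooled ranks of 10413 (RpL10), 10300 (RpL15), 16972 (RpL38) and 14819 (RpL5). Of the 207 protein-coding genes that far from a thresholded summit, the Y chromosome left out, 30 had such a region (14.5%). The summits lay 43 (RpL10), 151 (RpL15), 52 (RpL38) and 53 bp (RpL5) from the TSS.

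The nearest thresholded summit of the remaining members without one lay 1624 to 79180 bp away, RpS19b and RpS28a apart. It was 2098 bp for RpL39, 2814 bp for RpL10Ab, 3422 bp for RpL40, 3498 bp for RpL6, 4938 bp for RpL29 and 4964 bp for RpS24. It was 1773 bp for RpS15Ab, 1874 bp for RpS26, 7077 bp for RpL9, 7639 bp for RpS15, 7952 bp for RpL36A and 9190 bp for RpL11. Farther off, it was 16371 bp for RpS10a, 25677 bp for RpL37-2, 50425 bp for RpL10Aa and 79180 bp for RpL21.

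Several ribosomal proteins are encoded by a pair of genes, and in 6 of the 9 pairs the summit lay at 1 copy, each time the copy on X. RpS10b ranked 3169 (2218, 4413 and 3819 in the replicates), while RpS10a had no thresholded summit at a TSS. RpS19a ranked 4318 (4417, 4504 and 4584) and RpS19b had none, and RpS28b ranked 2776 (2156 and 2016 in replicates 1 and 2) and RpS28a had none. RpS15Aa ranked 4754 and RpL37-1 ranked 5377, with none at RpS15Ab or RpL37-2. In flies RpS19b is known for expression in the germline.

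The sequences around the TSSs of 3 such pairs are shown, the copy with a summit before the copy without. Each run holds 55 bases with the TSS at position 41 (the one nearest to the summit, where there is a summit), CTTT in capitals as above, and the positions and strands on dm6 are chrX:19597991-19598045 (plus) for RpS10b, chr3R:27652720-27652774 (plus) for RpS10a, chrX:16637854-16637908 (plus) for RpS19a, chr3R:23933516-23933570 (minus) for RpS19b, chrX:9554583-9554637 (plus) for RpS28b, chr3R:30022634-30022688 (minus) for RpS28a.
RpS10b: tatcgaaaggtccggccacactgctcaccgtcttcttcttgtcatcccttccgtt
RpS10a: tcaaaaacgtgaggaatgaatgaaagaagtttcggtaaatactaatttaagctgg
RpS19a: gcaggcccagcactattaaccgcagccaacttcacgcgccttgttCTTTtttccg
RpS19b: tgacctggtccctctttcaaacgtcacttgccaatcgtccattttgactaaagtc
RpS28b: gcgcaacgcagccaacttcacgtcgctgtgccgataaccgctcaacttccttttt
RpS28a: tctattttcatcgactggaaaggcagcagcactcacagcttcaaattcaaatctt
RpS19a holds CTTT within 6 bases of the TSS, while RpS10b and RpS28b have a summit and do not hold it there. RpS10a, RpS19b and RpS28a do not hold it either.

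In the other 3 pairs the copies did alike. RpL34a ranked 2041 (1967, 1740 and 2614 in the replicates) and RpL34b ranked 424, as given above. RpS14a ranked 5241 (4395, 12397 and 4416) and RpS14b ranked 4507 (3496, 4713 and 5249), but these neighbours on X are near-identical copies, so reads may be split between them and both values are uncertain. Neither RpL10Aa nor RpL10Ab had a thresholded summit. The 5 genes set aside because their symbols end in -like held 1 summit, at RpLP0-like (rank 2595, 71 bp upstream), and the nearest summit to RpL22-like lay 1064 bp away.

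Promoter words differed between ribosomal protein genes and other genes. Words were searched on both strands from 250 bases before to 50 bases after the TSS of the canonical transcript, and none of them contains another. The DRE, TATCGATA, stood in 26 of 88 member promoters (29.5%, interval 21.0 to 39.8%), against 8.94% of all 13968. The core of Motif 1, GGTCACAC, which M1BP binds, stood in 13 (14.8%, against 7.52%). GAGAGA, the word of the GAGA factor, stood in 4 (4.55%, against 12.6%). A match of letters is a description and does not show a bound site.

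CTTT on the strand of the gene, starting within 6 bases of the canonical TSS, stands here for the TCT initiator. It was found in 48 of 88 members (54.5%, interval 44.2 to 64.5%), against 6.71% of all protein-coding genes. Its closest start was the TSS base itself in 2 of the 48 (4.17%, against 7.9% of all genes with the word). The most frequent place was 4 bases after the TSS, in 11. A match thus shows CTTT near the annotated TSS and does not show that transcription starts within it. The word was about as common in members with a summit, 32 of 60 (53.3%), as in members without, 16 of 28 (57.1%). The DRE stood in 20 of 60 members with a summit (33.3%, interval 22.7 to 45.9%) and in 6 of 28 without (21.4%, interval 10.2 to 39.5%), against 12.7% of all genes with a summit, and the intervals of the members with and without a summit overlap.

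The other words were the TATA box, the E-box and a further core promoter word. TATAAA stood in 41 member promoters (46.6%, against 45.3%), but when only 100 bases before the TSS were searched it stood in 11.4% of member promoters, against 23.7% of all. The E-box CACGTG, which Myc binds, stood in 8 (9.09%, interval 4.68 to 16.9%, against 4.25%), and CAGCNCTG also in 8 (9.09%, against 7.17%).

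**Figure D5:**
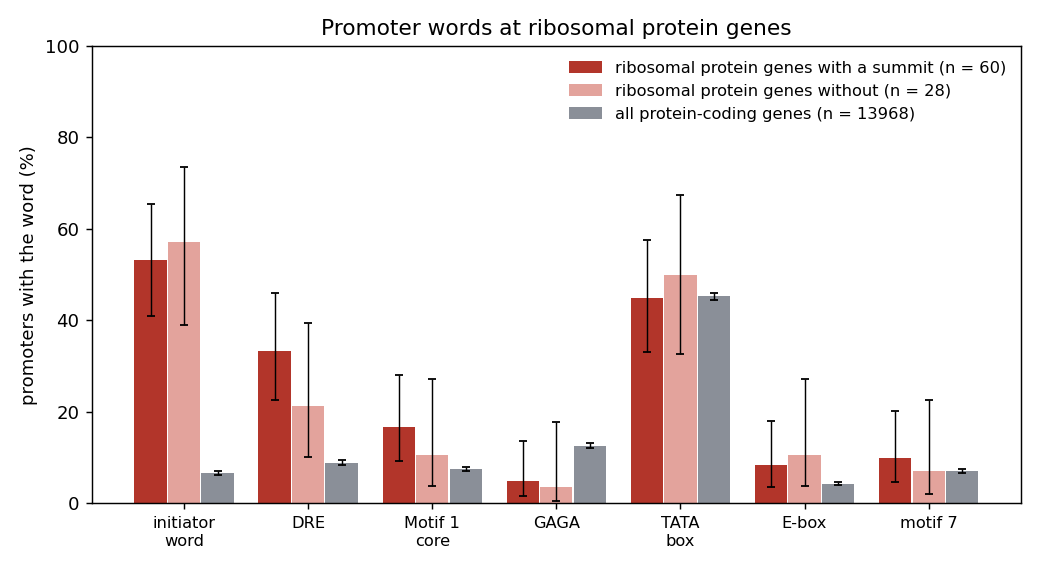
Percent of promoters, from 250 bases before to 50 after the TSS, that hold each word, for the 60 ribosomal protein genes with a summit (red, left), the 28 without (light red, middle) and all 13968 protein-coding genes (grey, right); the initiator word is searched within 6 bases of the TSS. Bars are 95% Wilson intervals; the initiator word stands in 53.3, 57.1 and 6.71% of the 3 groups.

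The same words were searched within 50 bp of the strongest summit. The DRE stood there in 10 of the 60 members (16.7%, interval 9.31 to 28.0%), against 3.38% of other genes with a summit, and the core of Motif 1 in 5 (8.33%, against 1.75%). GAGAGA stood in 0 of 60, which allows a share of up to 6.02% by the interval, against 4.68% of other genes. TATAAA stood in 6 (against 20.6%), CACGTG in 2 (3.33%, against 0.8%) and CAGCNCTG in 4 (6.67%, against 3.41%). The stretches searched differ in place, since 51.7% of member summits and 15.8% of the others lay within 50 bp of the TSS. The DRE was also commoner in whole promoters of members with a summit (33.3%) than of all genes with a summit (12.7%). The part of either in these shares was not tested.

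The DRE lay 18 to 32 bp from the summit in the 7 members whose sequence is shown here because the word and the summit stand together. Each run holds 30 bases of dm6 on the strand of the gene with the DRE in capitals, and the positions are chr3R:11216328-11216357 (minus) for RpS25, chr3R:9778046-9778075 (plus) for RpS29, chr3R:25685073-25685102 (minus) for RpL27, chrX:629459-629488 (minus) for RpL36, chrX:19597943-19597972 (plus) for RpS10b, chr3L:13023300-13023329 (plus) for RpS12, chrX:7933667-7933696 (plus) for RpS14a.
RpS25: ccaccaccaacTATCGATAggcaggcgagc
RpS29: atcgtggaaaaTATCGATActgccaccccc
RpL27: ttgccactaagTATCGATAaaaagacgacg
RpL36: gcccgcccgccTATCGATAataaggcacga
RpS10b: tcttaagataaTATCGATAtattgccggcg
RpS12: ctctgcgaaacTATCGATAtttgtaccaat
RpS14a: gacacactcccTATCGATAagctatcgcca
The word lay 18 bp from the summit at RpS25, 24 bp at RpS29 and RpL36, 28 bp at RpL27, 30 bp at RpS10b and RpS12, and 32 bp at RpS14a. RpL41 and RpL19 are also among the 10, with distances of 10 and 38 bp.

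Mitochondrial ribosomal protein, translation factor and ribosome biogenesis genes had summits less often than the cytoplasmic ribosomal protein genes, by count. Mitochondrial ribosomal proteins had one at 34 of 73 genes (46.6%, interval 35.6 to 57.9%). Translation factors had one at 16 of 36 (44.4%, interval 29.5 to 60.4%), led by the poly(A)-binding protein gene pAbp at rank 332, eIF3h at 928 and eEF1gamma at 1219, with none at eEF1alpha2. Ribosome biogenesis genes had one at 7 of 25 (28.0%, interval 14.3 to 47.6%), led by eIF6 at rank 109, l(3)72Dn at 1964 and Surf6 at 3480, with none at mbm. The share of all protein-coding genes was 24.6%, and no test of the difference between the lists was made.

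A list of 7 promoter factor genes, not all of them known to act at ribosomal protein promoters, had a summit at 5 (71.4%, interval 35.9 to 91.8%, against 24.6% of all protein-coding genes). The strongest was at Trl, the GAGA factor gene, at rank 893, followed by Dref at 1519 through the summit it shares with RpL13, and M1BP at 2267. Trf2 ranked 4952 and Myc 7162. Tbp and TfIIA-L had none, with the nearest summit 13145 bp from Tbp and 5984 bp from TfIIA-L.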

How the data were processed

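ChIP-seq of Fru-GFP gave 3 replicate lists, a pooled list and a thresholded list of regions per genome build, and the dm6 lists were used. The signal value is a score the authors deposited for each region, and the summit offset is likewise as the authors deposited it. The caller, its settings, the cutoff of the irreproducible discovery rate and the aligner were not given in the sources used here. Genes, TSSs and canonical transcripts came from Ensembl BDGP6.54, release 115, and sequence from the RefSeq genome of the same build. Python 3.11.15, pandas 2.3.3, numpy 2.4.6 and matplotlib 3.10.9 were used. Distances and words were tested on simulated data with planted summits. The members and lists were chosen with earlier results of these data known. No test was made. Some members are not reported by name here and are not drawn in the plots of single genes, though they stay in every count. Named are the 12 strongest and 3 weakest members, paralog pairs, members with a known role, members without a summit, those nearest the 500 bp limit, those with further summits and those missing from a replicate, and from each other list the 3 strongest and the first without. Alternatives were other distances (250 and 1000 bp), the canonical TSS, stronger regions, presence in replicates, region overlap, other promoter windows and each replicate left out.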

Additional observations from a re-analysis of the deposited data

How the results depend on the processing

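Of 88 values under the alternatives, 80 kept their place and 8 moved. The limit was the spread between replicates for medians and a factor of 1.5 for counts. For shares of promoter words it was the Wilson interval of the reported share. The ribosomal protein genes with a summit ranged from 44 (the 4498 strongest regions) to 61 (within 1000 bp), against 60 as reported. Among the 4498 strongest thresholded regions the small subunit had 16 genes, all protein-coding genes had 2163 and the median rank was 2265 (1838 for all genes), values that fewer regions bring with them. With as many regions per replicate, 31 members were present in all 3. Summits shared with another gene numbered 16 within 250 bp and 13 where the region overlapped the TSS, windows that admit fewer TSSs. With 100 bases before the TSS, GAGAGA stood in 0.0% of member promoters (7.07% of all) and TATAAA in 11.4% (23.7% of all), a shorter window. When presence in both remaining replicates was required, leaving out each replicate in turn gave 53 to 54 ribosomal protein genes with a summit, 2551 to 2620 protein-coding genes, 32 to 34 of the large and 20 to 21 of the small subunit. It gave median ranks of 2683 to 2800 for members and 2382 to 2437.5 for all genes, the reverse of the order as reported, median positions of -48.0 to -46.5 bp and 26 to 28 shared summits, and replicate means of 62 to 65 genes. The pooled reads of the left-out replicate still entered those lists. The initiator word was not searched with 100 bases, since its own window does not change. Depth is unknown and limits what a missing summit shows. No paired analysis was possible because the 3 replicates form 1 group.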

Other observations

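Reading the member promoters printed above brought up the word AGCCAACTT, which was chosen after the sequences were seen and so is a description only. Searched on both strands from 250 bases before to 50 bases after the TSS, it stood in 6 of the 88 ribosomal protein promoters (6.82%), against 80 of 13968 protein-coding promoters (0.573%). All 6 members with the word had a thresholded summit at a TSS, against 68.2% of all members. RpS19a and RpS28b, which hold the word in the runs above, were printed as copies with a summit. Part of that count was thus set by the choice, and no link to binding can be read from it. Of the 80 protein-coding genes with the word, 18 had a summit (22.5%, against 24.6% of all protein-coding genes), a count that includes these 6. The centre of the word lay 0 bp from the summit at RpS19a, 23 bp at RpL27A, 29 bp at RpS21, 39 bp at RpS28b, 54 bp at RpS27 and 258 bp at RpL28. Their ranks were 4318, 7220, 2317, 2776, 321 and 4129 in the same order of genes, so the word stood at strong and weak summits alike. The 30 bases around it are shown on the strand of the gene, with the word in capitals, which at RpS27 is on the opposite strand, at chr3R:25247476-25247505 (minus) for RpS27, chr2L:2856076-2856105 (plus) for RpS21, chrX:9554582-9554611 (plus) for RpS28b, chr3L:3222971-3223000 (minus) for RpL28, chrX:16637867-16637896 (plus) for RpS19a, chr2L:4458310-4458339 (minus) for RpL27A on dm6.
RpS27: tcgggcaagttAAGTTGGCTgcgatttacc
RpS21: cgcgcagcgcAGCCAACTTcacgtccagct
RpS28b: tgcgcaacgcAGCCAACTTcacgtcgctgt
RpL28: tcggcaagcgcAGCCAACTTcgcgctatgt
RpS19a: tattaaccgcAGCCAACTTcacgcgccttg
RpL27A: gctacaaccgcAGCCAACTTcgcttctttc
No factor is assigned to the word here.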
